A study of Mus musculus with 2 samples.

Results

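Solute carriers and ATP-binding cassette transporters are the 2 large families of proteins that carry nutrients, ions, lipids and waste across the membranes of a cell, and their transcripts were followed in mouse morulae after the leukemia inhibitory factor (LIF) transcript was targeted. A gene spot was taken as a member when its name on the array opened with solute carrier, solute carrier family or ATP-binding cassette. The rule found 85 spots with 84 names among 8735 gene spots, of which 65 belonged to the solute carriers and 20 to the ATP-binding cassette family.

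The study compared embryos injected with LIF-siRNA, a small interfering RNA against LIF, with embryos injected with a scrambled siRNA. Both groups were whole embryos of strain B6CBF1 at an age of 4 d, collected as zygotes, injected into the cytoplasm at the two-pronucleus stage with 1.0 fmol of siRNA in 1 pl by the labels (the study's methods state another dose), cultured in human tubal fluid medium and harvested at the morula stage, and RNA of a pool of morulae was used, in microgram amounts and with no amplification step described. LIF-siRNA was labeled with Cy5 and scrambled siRNA with Cy3 on each of 2 cDNA arrays, without a dye swap, so the dye and the treatment cannot be told apart. The descriptions in the labels also name untreated embryonic stem cells and 4 replicates, which the titles do not, and no spot is named for LIF, so the knockdown could not be checked on the array.

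Solute carriers move a substrate down its gradient or couple it to the gradient of another ion, whereas ATP-binding cassette transporters spend ATP to pump a substrate, often outwards. A preimplantation embryo lives on pyruvate and lactate first and takes up more glucose as it compacts, it accumulates amino acids as fuel and as osmolytes, and the trophectoderm moves ions and water to form the blastocoel. The ATP-binding cassette family includes drug efflux pumps, lipid exporters, peroxisomal carriers and a few proteins that do not transport but act on the ribosome.

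On the arrays, 77 of the 85 transporter spots had, on each array, a signal well above background in either channel and were tested, and 73 were above background in both channels on both arrays. The other 8 spots included Abca8, Abcg3, Abcg5, Slc1a2, Slc2a2 and a pair of organic cation transporters without a current symbol, and 5 of these 8 were above background in neither channel on either array. All values below are processed signals, which are background-subtracted and dye-normalized brightness in arbitrary units, or log2 ratios of LIF-siRNA over scrambled siRNA. Since signals of different cDNA spots depend on the clone, each spot is compared only with itself. In RNA from whole embryos, fewer cells that express a gene and less RNA per cell cannot be told apart.

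The median signal over local background lay between 4.83 and 6.60 over the channels and arrays, and no gene spot was saturated. Of 14 embryo marker genes searched by name, 8 were on the array, and all were above background in both channels of both arrays. They included POU domain, class 5, transcription factor 1 (Oct4), zinc finger protein 42 and cadherin 1. Their summed signal was 59534 in Cy3 and 60149 in Cy5 on array 1, and 72354 and 58994 on array 2. Within that list, SRY-box containing gene 2 had a mean log2 ratio of -2.35, keratin 8 of -1.95, GATA-binding protein 6 of -1.28 and GATA-binding protein 3 of -0.54, while cadherin 1 stood at 0.47, zinc finger protein 42 at 0.35, eomesodermin at 0.14 and Oct4 at -0.11. Spots of genes that mark other cells were read too, but their signals depend on the clone and do not give the share of such cells. The 2 spots for cumulus or oviduct summed to 387 to 436 in Cy3 and 594 to 738 in Cy5, the 3 blood spots to 146 to 182 and 187 to 213, and the 3 liver and kidney spots to 243 to 283 and 330 to 441. Higher on both arrays among them were alpha fetoprotein at a mean log2 ratio of 1.95, oviductal glycoprotein 1 at 0.93 and 1 of the hemoglobin beta spots at 0.76. Lower on both were the other hemoglobin beta spot at -0.19 and transthyretin at -0.09, while tumor necrosis factor induced protein 6 (-0.63 and 0.23) and uromodulin (0.09 and -0.11) had opposite signs, as did lysozyme, which was not tested. Of 5 maternal marker genes searched by name, 1 was on the array, bone morphogenetic protein 15. It was dim, with 77.2 in Cy3 and 98.4 in Cy5 on array 1 and 74.0 and 126 on array 2, and higher on both at a mean log2 ratio of 0.56. The part of these differences in the transporter results was not tested.

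With the study's thresholds, a ratio over 2 or under 0.5 together with a signal over 1000 in either channel, applied here to the mean of both arrays, 4 transporters were up-expression spots and 2 were down-expression spots. The study's methods do not state how the arrays were combined, and its own gene lists are not used here, so a spot called here need not be on them and a spot not called here may be. Up-expression by this rule was met by Abcb4, Slc27a2, Abcg2 and Slc6a14, which are 4.71% of the 85 spots beside 2.16% of all gene spots. Down-expression was met by Slc20a1 and Abca7, 2.35% of the transporter spots beside 2.19% of all. Only 31 of the transporters passed the signal threshold, and within them the shares were 12.9% and 6.45%, beside 5.33% and 5.42% of all spots past it. From array 1 alone there were 3 up-expression transporters (Abcb4, Abcg2 and Abcb1, without Slc27a2 and Slc6a14) and 2 down-expression transporters, beside 2.02% and 2.47% of all gene spots. From array 2 alone there were 5 and 5, beside 2.98% and 3.05%. Without the signal threshold 8 transporters were up and 4 were down, beside 6.55% and 5.13% of all gene spots, and the same numbers were called with well above background in its place, beside 6.45% and 4.89%. Slc7a9, with a Cy3 signal not well above background on either array, was among the 8 under both rules. Where both arrays had to pass separately, 2 were up and 2 were down, beside 0.941% and 1.45%.

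No transporter passed limma after Benjamini-Hochberg adjustment over 8079 probes, as was the case for 0.0% of all probes, and 0.058 was the lowest adjusted p of the transporters and of the array. At an unadjusted p under 0.05 there were 24 transporters, 14 higher and 10 lower, 31.2% of those tested beside 30.7% of all probes. Slc7a9, tested only through the Cy5 channel in which it is high, is 1 of the 14, and without it there were 23 of 76, or 30.3%. The methods' t-test also gave 0 after adjustment, with 8 transporters before it (10.4%, against 10.7% of all probes). Limma stayed at 0 with outliers kept and with no filter on dim probes. Under the other normalizations and filters and an intensity trend, 5 to 16 transporters passed limma (Slc7a9 among the 16), with 1.96% to 18.7% of all probes. The log2 ratio was above 0 on both arrays for 30 transporters (38.96%, against 36.7% of all probes), below 0 on both for 25 (32.5%, against 36.8%) and of opposite sign for 22. A ratio above 2 on both arrays was found for 6 transporters (7.79%, against 2.78%), 1 of them, Slc7a9, with a Cy3 signal not well above background, and one below 0.5 on both for 3 (3.90%, against 3.03%). Both Cy5 signals exceeded both Cy3 signals for 26 transporters (33.8%, against 31.4% of all probes), and both Cy3 signals exceeded both Cy5 signals for 22 (28.6%, against 31.2%), so that a lack of overlap was common on these arrays. Slc7a9 is also in the upward counts of 30 and 26, which are 29 and 25 of 76 without it. The median log2 ratio was 0.06 over the 77 transporters and -0.004 over all probes.

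Between the arrays, the log2 ratios of the 77 transporters were correlated with an r of 0.677 (Pearson) and a rho of 0.632 (Spearman), and those of the 31 past the signal threshold with 0.871 and 0.886. Over all 8079 probes r was 0.639 and rho 0.632. This is a correlation across genes, which share the dyes and RNA and are not independent replicates. Dim spots were less repeatable. The median SD between the arrays was 0.198 for the 31 bright transporters and 0.369 for the other 46, and the sign differed between the arrays for 3 of the 31 and for 19 of the 46.

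**Figure D1:**
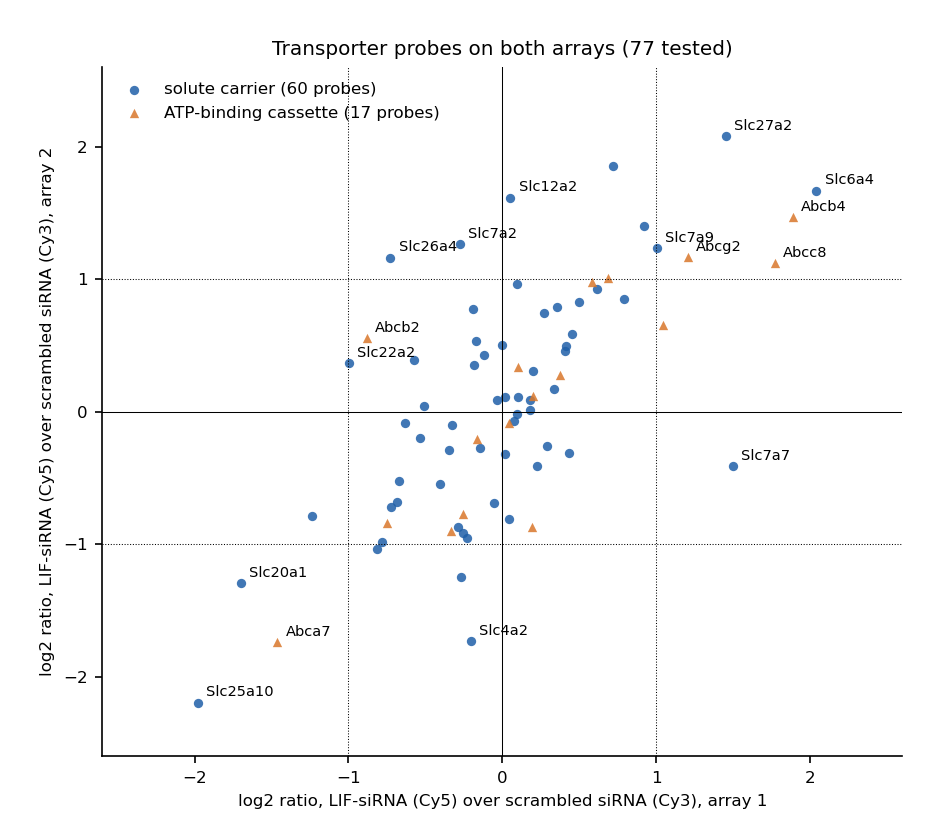
Log2 ratio of LIF-siRNA (Cy5) over scrambled siRNA (Cy3) on array 1 (x axis) and array 2 (y axis) for the 77 transporter spots tested, with circles for 60 solute carriers and triangles for 17 ATP-binding cassette genes; dotted lines mark a ratio of 2 or 0.5. Most points lie along the diagonal, 6 lie beyond the dotted lines at the upper right (Slc7a9 among them, with a Cy3 signal not well above background) and 3 at the lower left, while Slc7a7, Slc12a2, Slc4a2 and a few others were far from 0 on 1 array only.

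The widest upward ratio belonged to Slc6a4, the serotonin transporter. Its signal was 193 in Cy3 and 796 in Cy5 on array 1, and 151 and 478 on array 2. Its log2 ratio was 2.04 and 1.67, with a mean of 1.86 ± 0.27 (SD, n = 2) and an adjusted p of 0.058 in limma. Both LIF-siRNA signals exceeded both scrambled signals, yet all were below 1000, so the spot was not called by the rule used here, which says nothing of the study's own lists.

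Slc27a2, a fatty acid transport protein that also activates very long chain fatty acids, gave 327 in Cy3 and 897 in Cy5 on array 1, and 286 and 1210 on array 2. The log2 ratios were 1.46 and 2.08, a mean of 1.77 ± 0.44 (SD, n = 2), with an adjusted p of 0.0592 in limma. The groups did not overlap, and the mean Cy5 signal of 1054 stood just above the signal threshold.

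Abcb4, the phospholipid flippase of the bile canaliculus, read 2886 in Cy3 and 10685 in Cy5 on array 1, and 2712 and 7509 on array 2. Its log2 ratio of 1.89 and 1.47 gave a mean of 1.68 ± 0.30 (SD, n = 2) and an adjusted p of 0.058 in limma. The name Abcb4 has also stood for Abcb1a, and the clone was not traced to a transcript here.

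Abcg2, an efflux pump for drugs and porphyrins, gave 652 in Cy3 and 1507 in Cy5 on array 1, and 599 and 1347 on array 2. With log2 ratios of 1.21 and 1.17, a mean of 1.19 ± 0.03 (SD, n = 2), it was the most repeatable of the 4 up-expression spots, with an adjusted p of 0.0635 in limma. Slc6a14, a broad carrier for neutral and cationic amino acids, gave 1513 and 2864 on array 1, and 1122 and 2964 on array 2. Its log2 ratios were 0.92 and 1.40, and the mean of 1.16 ± 0.34 (SD, n = 2) had an adjusted p of 0.0734 in limma. The ratio of Slc6a14 was thus below 2 on array 1 and above it on array 2, while the LIF-siRNA signals exceeded the scrambled ones without overlap.

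In the opposite direction, Slc25a10, the mitochondrial dicarboxylate carrier, had the lowest ratio of all transporters. Its signal was 862 in Cy3 and 219 in Cy5 on array 1, and 1093 and 238 on array 2. The log2 ratios were -1.98 and -2.20, a mean of -2.09 ± 0.16 (SD, n = 2), with an adjusted p of 0.058 in limma. Its mean Cy3 signal of 978 left it just under the signal threshold. On the array its name carries the words adenine nucleotide translocator, which belong to other members of family 25.

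Abca7, a phospholipid transporter of sub-family A, gave 3240 in Cy3 and 1176 in Cy5 on array 1, and 3265 and 976 on array 2. Both log2 ratios, -1.46 and -1.74, were beyond 2-fold, with a mean of -1.60 ± 0.20 (SD, n = 2) and an adjusted p of 0.058 in limma. Slc20a1, a sodium-dependent phosphate carrier that also serves as a retrovirus receptor, read 5354 and 1651 on array 1, and 5485 and 2238 on array 2. The log2 ratios were -1.70 and -1.29, a mean of -1.50 ± 0.29 (SD, n = 2), and limma gave an adjusted p of 0.0607. For these 3 genes, each scrambled siRNA signal was higher than each LIF-siRNA signal.

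**Figure D2:**
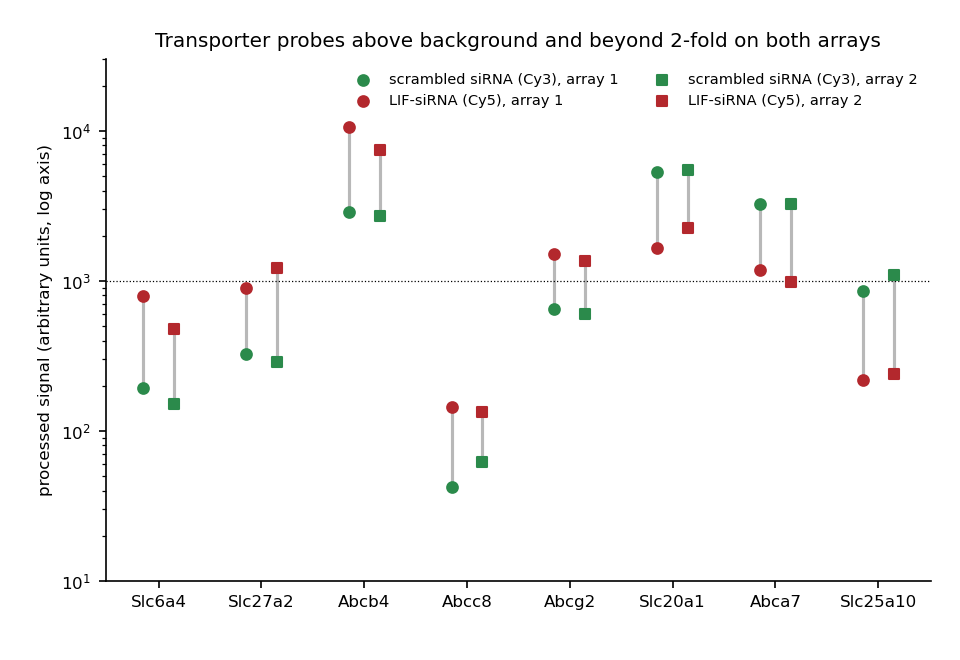
Processed signal in arbitrary units on a log axis for the 8 transporter spots above background and beyond 2-fold in the same direction on both arrays, in scrambled siRNA (Cy3, green) and LIF-siRNA (Cy5, red), with circles for array 1 and squares for array 2; the dotted line is the threshold of 1000. The 5 spots on the left were chosen as higher in LIF-siRNA and the 3 on the right as lower, and Slc6a4 and Abcc8 stayed below 1000 in both channels.

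The sequence before the start of 4 of these genes, a pair from each end that has 1 start in the RefSeq promoter table, is shown for context, 250 bases before to 50 after the start. Both strands were searched for the palindrome TTCNNNGAA, which STAT factors, the transcription factors downstream of the LIF receptor, bind. The GC box was searched as GGGCGG. The TATA box was searched as TATAAA. Capitals mark the matches. The windows lie on the forward strand of GRCm38.p6 at chr11:76998347-76998646 (Slc6a4), chr2:126552774-126553073 (Slc27a2), chr11:120491587-120491886 (Slc25a10) and chr10:79996244-79996543 (Abca7).
Slc6a4: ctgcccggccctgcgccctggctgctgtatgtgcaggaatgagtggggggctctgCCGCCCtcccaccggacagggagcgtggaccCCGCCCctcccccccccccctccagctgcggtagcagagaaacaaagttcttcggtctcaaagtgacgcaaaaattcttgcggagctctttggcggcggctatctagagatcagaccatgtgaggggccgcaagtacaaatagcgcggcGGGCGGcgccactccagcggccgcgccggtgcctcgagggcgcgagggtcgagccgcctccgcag
Slc27a2: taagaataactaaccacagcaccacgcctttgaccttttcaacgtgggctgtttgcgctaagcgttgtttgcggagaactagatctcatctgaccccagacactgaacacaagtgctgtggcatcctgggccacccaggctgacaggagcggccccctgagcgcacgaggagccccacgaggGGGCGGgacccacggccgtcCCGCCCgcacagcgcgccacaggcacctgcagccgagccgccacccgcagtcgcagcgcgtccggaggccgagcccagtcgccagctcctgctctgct
Slc25a10: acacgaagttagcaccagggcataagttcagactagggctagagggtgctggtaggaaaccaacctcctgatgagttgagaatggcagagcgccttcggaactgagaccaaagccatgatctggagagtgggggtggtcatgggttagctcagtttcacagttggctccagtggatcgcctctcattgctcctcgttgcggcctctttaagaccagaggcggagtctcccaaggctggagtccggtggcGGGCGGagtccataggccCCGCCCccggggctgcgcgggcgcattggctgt
Abca7: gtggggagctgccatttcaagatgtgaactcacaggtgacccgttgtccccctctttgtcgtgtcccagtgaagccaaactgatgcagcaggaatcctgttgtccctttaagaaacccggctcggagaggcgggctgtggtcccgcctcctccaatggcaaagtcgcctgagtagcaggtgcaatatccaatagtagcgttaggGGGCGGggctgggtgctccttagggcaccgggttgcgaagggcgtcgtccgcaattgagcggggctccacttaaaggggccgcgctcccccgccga

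In these windows a GC box was found 3 times for Slc6a4, 2 times for Slc27a2, 2 times for Slc25a10 and 1 time for Abca7, and neither of the other motifs was found. The table held 81 windows for 56 of the 74 transporter genes tested whose symbol stands for 1 gene only, which leaves out Abcb4 and Slc23a1. Of these windows 61.7% held a GC box, beside 35.7% of all 32851 promoter windows, 12.3% held a TATA box, beside 13.6%, and 2.47% held the STAT palindrome, beside 8.30%. Of the genes with a ratio above 2 on both arrays, 4 of 5 were in the table with 7 windows, of which 4 held a GC box, 2 a TATA box and 0 the palindrome. Slc7a9, whose Cy3 signal was not well above background, is counted among those 5. The 3 genes with a ratio below 0.5 on both arrays had 4 windows, of which 4 held a GC box, 1 a TATA box and 0 the palindrome. These counts describe the letters in the windows and say nothing of binding.

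Among the remaining high ratios, some rested on dim spots. Abcc8, the sulfonylurea receptor of the ATP-sensitive potassium channel, gave 42.2 in Cy3 and 144 in Cy5 on array 1, and 61.8 and 134 on array 2, for a mean log2 ratio of 1.45 ± 0.46 (SD, n = 2). After normexp background correction and loess this became 0.63. Slc7a9, the light chain of the cystine and cationic amino acid exchanger, was not well above background in Cy3 on either array (19.2 and 20.3) and gave 38.4 and 47.8 in Cy5. In the processed signals it was at least 1.70-fold higher in LIF-siRNA, measured against the lowest signal that is well above background on each array. It was tested only because of its Cy5 signal, so its p is not given. After normexp and loess its mean log2 ratio was 0.22, so the bound did not hold under that scaling and the size of the difference is not settled. Slc34a1, a sodium phosphate cotransporter of the kidney, gave 340 and 559 on array 1 and 219 and 792 on array 2, a mean log2 ratio of 1.29 ± 0.80 (SD, n = 2) whose arrays differed widely.

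The next pair upward came from the efflux pumps. Abcb1, listed today as Abcb1b and one of the P-glycoproteins, gave 1812 in Cy3 and 3747 in Cy5 on array 1, and 2419 and 3811 on array 2. The mean log2 ratio was 0.85 ± 0.28 (SD, n = 2), without overlap between the groups. Abcg1, which exports cholesterol to lipoproteins, gave 468 and 753 on array 1, and 481 and 967 on array 2, a mean log2 ratio of 0.85 ± 0.23 (SD, n = 2), again without overlap.

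Farther down the list, Slc2a5, the fructose transporter, gave 179 in Cy3 and 75.9 in Cy5 on array 1, and 162 and 93.8 on array 2, with a mean log2 ratio of -1.01 ± 0.31 (SD, n = 2), which became -0.59 after normexp and loess. Slc25a4, an adenine nucleotide translocator of the mitochondrial inner membrane, was bright, with 8457 and 4801 on array 1 and 9669 and 4700 on array 2. Its mean log2 ratio was -0.93 ± 0.16 (SD, n = 2), and its channels did not overlap. Slc22a5, the sodium-dependent carnitine transporter, gave 406 and 236 on array 1 and 946 and 479 on array 2. Its mean log2 ratio was -0.88 ± 0.14 (SD, n = 2). Both channels were brighter on array 2, where the Cy5 signal exceeded the Cy3 signal of array 1.

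Abcd4, which helps vitamin B12 leave the lysosome, gave 1681 in Cy3 and 1001 in Cy5 on array 1, and 2141 and 1195 on array 2, for a mean log2 ratio of -0.79 ± 0.07 (SD, n = 2). Slc30a3, the zinc transporter of synaptic vesicles, gave 622 and 377 on array 1 and 667 and 404 on array 2, and its log2 ratio was -0.72 on both. In both genes the LIF-siRNA signals lay under the scrambled ones.

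By contrast, Slc4a2, the anion exchanger 2, rested on 1 array. It gave 436 in Cy3 and 379 in Cy5 on array 1, and 765 and 230 on array 2, so that the mean log2 ratio of -0.97 had an SD of 1.08. Slc29a1, an equilibrative nucleoside transporter, likewise gave 553 and 460 on array 1 and 1020 and 429 on array 2, with a mean log2 ratio of -0.76 ± 0.69 (SD, n = 2).

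**Figure D3:**
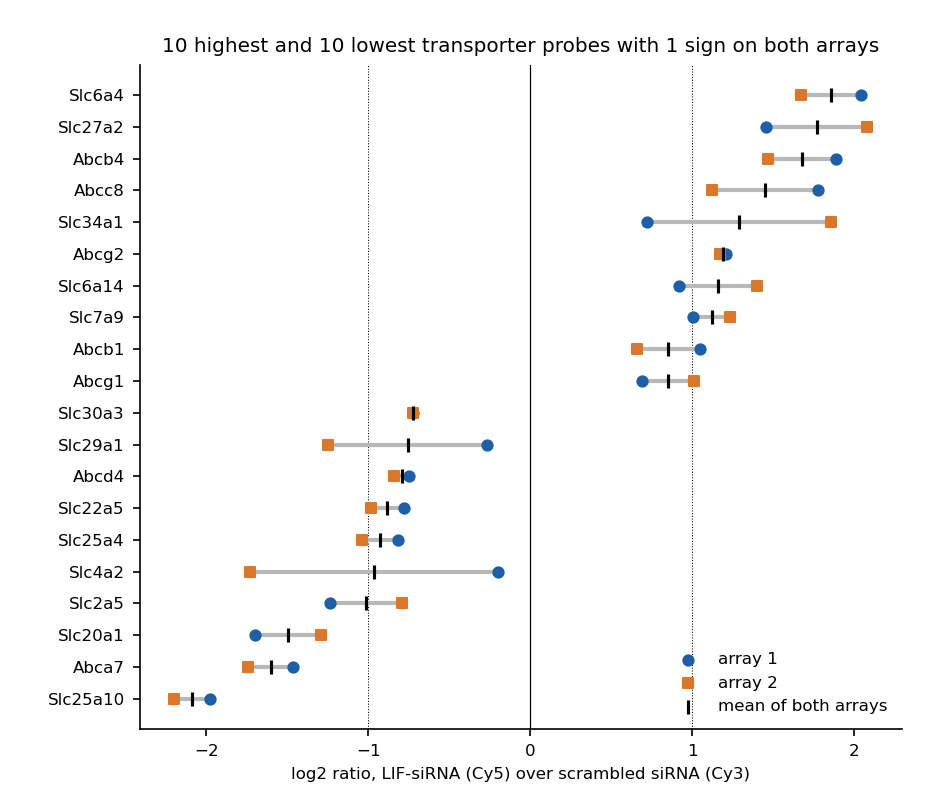
Log2 ratio of LIF-siRNA (Cy5) over scrambled siRNA (Cy3) on array 1 (circles) and array 2 (squares) for the 10 highest and 10 lowest transporter spots that have 1 sign on both arrays, with a tick at the mean and dotted lines at a ratio of 2 and 0.5. Abcg2, Slc30a3 and Abcd4 lay close together on the arrays, while Slc4a2, Slc34a1 and Slc29a1 were spread over about 1 log2 unit or more. The ratio of Slc7a9 is drawn against a Cy3 signal not well above background.

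Ordered by substrate, the transporters showed no single direction. Classes hold only spots with a family name, and transporters under other names are given further below. The members below that do not belong to either end of the list, the spots called above or the fixed list of embryo transporters are named to fill out a class, with their values in view. In every class the counts on each side and the sign of the median were the same under normexp with loess and under median centring, except where stated, and no class was tested as a set.

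Of 7 amino acid and peptide transporters, 4 were higher on both arrays and 1 was lower, with a median log2 ratio of 0.53, while array 1 alone gave 0.20 and array 2 alone 0.79. The median became 0.22 after normexp and loess. Slc7a9, 1 of the 4, was tested only through its Cy5 signal, and without it 3 of 6 were higher and the median was 0.51. Slc7a5, the light chain of the large neutral amino acid exchanger, gave 528 in Cy3 and 674 in Cy5 on array 1, and 550 and 950 on array 2, a mean log2 ratio of 0.57 ± 0.31 (SD, n = 2). Slc3a1, the heavy chain that pairs with Slc7a9, was the one that was lower, with 81.5 and 50.8 on array 1 and 73.6 and 46.0 on array 2, and a log2 ratio of -0.68 on both. After normexp and loess the mean log2 ratio of Slc3a1 was -0.30.

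The arginine and lysine carriers were not repeatable. Slc7a2, a cationic amino acid transporter, had log2 ratios of -0.28 on array 1 and 1.26 on array 2, from signals of 442 and 366, then 271 and 650. Slc7a7, which exchanges cationic for neutral amino acids, had 1.50 and -0.41, from 270 and 765, then 434 and 326. Both had an SD above 1, and no direction can be given for either.

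Among 4 transporters of neurotransmitters and amines, the 2 higher on both arrays were Slc6a4 and Slc6a14, described above, and none was lower on both. Classes follow the family number, and Slc6a14 belongs to family 6 although it carries amino acids. Counted with the amino acid transporters it would make 5 of 8 higher on both arrays, with a median log2 ratio of 0.54. Slc6a6, the taurine transporter, was above background on 1 array only in each channel, with log2 ratios of -0.58 and 0.39. Its mean of -0.09 became 0.21 under median centring.

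The 3 tested sugar transporters had a median log2 ratio of -0.36, with -0.63 from array 1 and -0.08 from array 2, and 2 were lower on both arrays. Slc2a1, the main glucose transporter of the early embryo, gave 1814 in Cy3 and 1168 in Cy5 on array 1, and 1334 and 1259 on array 2. Its mean log2 ratio of -0.36 ± 0.39 (SD, n = 2) came mostly from array 1, with an adjusted p of 0.367 in limma. Slc2a2, a glucose transporter of liver and pancreatic beta cells, was not well above background in either channel. After normexp and loess all 3 tested spots were lower on both arrays, and after median centring 2 were lower and 1 was higher. Glucose transporter X1, which lacks the family name and is not counted in the class, was lower on both arrays (-0.27 and -0.39).

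For the monocarboxylates, the carriers of pyruvate and lactate, the ratio did not have the same sign on the arrays for either tested gene of the class. Monocarboxylate transporter 4, which lacks the family name and is not counted in the class, was lower on both arrays (-0.34 and -0.81). Slc16a1 gave 3248 in Cy3 and 2280 in Cy5 on array 1, and 2737 and 2823 on array 2, with a mean log2 ratio of -0.23 ± 0.39 (SD, n = 2). Slc16a7 gave 70.0 and 64.5, then 47.4 and 63.8, with a mean log2 ratio of 0.16 ± 0.39 (SD, n = 2). The class median of -0.04 came from -0.31 on the first array and 0.24 on the other, and it turned to 0.02 under median centring, where 1 of the pair was lower on both arrays.

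Mitochondrial carriers, which exchange metabolites across the inner membrane, had 4 of 7 members lower on both arrays and 2 higher, with a median log2 ratio of -0.32. Besides Slc25a10 and Slc25a4, the lower ones were Slc25a13, an aspartate and glutamate carrier, at -0.59 ± 0.51 (SD, n = 2) and Slc25a14, a brain-type uncoupling protein, at -0.32 ± 0.04 (SD, n = 2). Slc25a17, which resides in the peroxisome, was higher, with 4734 in Cy3 and 8180 in Cy5 on array 1, 4910 and 8841 on array 2 and a mean log2 ratio of 0.82 ± 0.04 (SD, n = 2). Slc25a20, which carries acylcarnitines into the mitochondrion, had a mean log2 ratio of 0.10 ± 0.12 (SD, n = 2), which turned to -0.03 under median centring. Median centring left 1 of the 7 higher on both arrays in place of 2.

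The 18 spots for inorganic ions were the largest class, with 8 higher on both arrays, 3 lower and a median log2 ratio of 0.12, or 0.22 after median centring. Of its 4 phosphate carriers, Slc34a1 was among the highest transporters and Slc20a1 among the lowest, while Slc34a2 and Slc20a2 lay between them. Slc34a2, an epithelial sodium phosphate cotransporter, gave 1964 in Cy3 and 2602 in Cy5 on array 1, and 2319 and 3188 on array 2, a mean log2 ratio of 0.43 ± 0.04 (SD, n = 2). Slc20a2, the close relative of Slc20a1, had log2 ratios of 0.43 and -0.31, with a mean of 0.06 ± 0.53 (SD, n = 2). The difference between these relatives was not tested.

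Slc12a2, the sodium, potassium and chloride cotransporter, was bright, and its ratio differed between the arrays. It gave 7257 in Cy3 and 7524 in Cy5 on array 1, and 2994 and 9180 on array 2, for log2 ratios of 0.05 and 1.62. The Cy3 signal differed more between the arrays than the Cy5 signal. Slc4a1, the anion exchanger of red cells, had log2 ratios of 0.10 and 0.11 at signals of 84.2 to 101, and its mean of 0.11 became 0.007 after normexp and loess and 0.32 under median centring. Slc4a1ap, named as an adapter of Slc4a1 and not itself a carrier, gave 2189 and 3098 on array 1 and 1753 and 3105 on array 2, with a mean log2 ratio of 0.66 ± 0.23 (SD, n = 2). Under median centring 9 of the 17 ion spots that had a value were higher on both arrays and 4 were lower.

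Of 5 metal transporters, 2 were higher on both arrays and 2 lower, with a median log2 ratio of -0.15, or -0.24 after median centring, 0.02 from array 1 alone and -0.27 from array 2 alone. Slc31a1, which imports copper, gave 5196 in Cy3 and 4695 in Cy5 on array 1, and 5519 and 4564 on array 2, a mean log2 ratio of -0.21 ± 0.09 (SD, n = 2). Slc11a2, which imports ferrous iron, gave 1431 and 1451, then 1268 and 1018, a mean of -0.15 ± 0.24 (SD, n = 2). Their adjusted p values in limma were 0.531 and 0.678. Median centring left 1 of the 5 metal transporters higher and 3 lower.

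In the small classes, 2 of 3 nucleoside transporters and 3 of 4 transporters of organic ions were lower on both arrays, none was higher on both, and the median log2 ratios were -0.36 and -0.45. For the nucleosides array 1 alone gave -0.27 and array 2 alone -0.20. The median of the organic ion transporters became -0.14 after normexp and loess and -0.17 under median centring, where 2 of the 4 were lower on both. Slc19a1, the reduced folate carrier, had log2 ratios of -0.06 and -0.69. Slc23a1, today the name of a vitamin C transporter but annotated on the array as a nucleobase transporter, gave 2152 in Cy3 and 3304 in Cy5 on array 1, and 1504 and 2854 on array 2. Its mean log2 ratio was 0.77 ± 0.22 (SD, n = 2), and since Slc23a1 is also an older symbol of Slc23a2, the gene behind this clone is not settled. The other fatty acid transporter, Slc27a5 of bile acid synthesis, had a mean log2 ratio of -0.60 ± 0.10 (SD, n = 2), or -0.31 after normexp and loess.

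**Figure D4:**
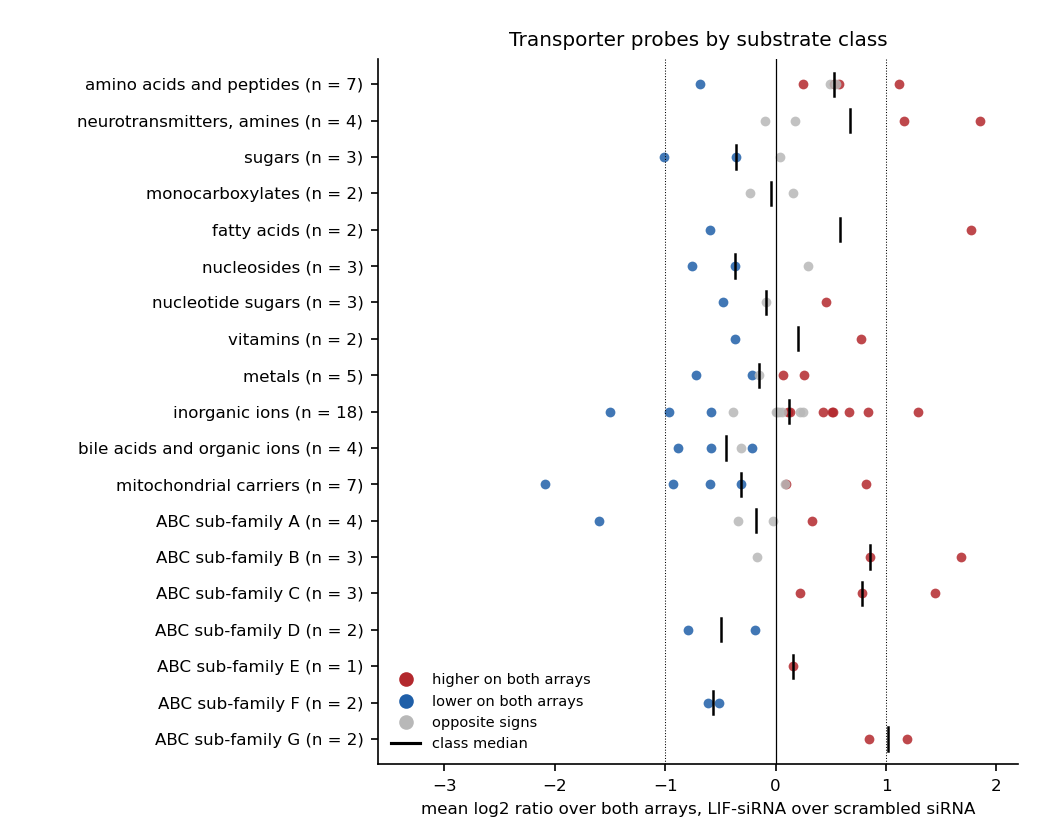
Mean log2 ratio over both arrays of each of the 77 transporter spots tested, by substrate class (rows, with the number of spots), colored by whether both arrays were above 0 (red), both below 0 (blue) or of opposite sign (gray), with a bar at the class median. Amino acid, neurotransmitter and ABC sub-family B, C and G rows have medians to the right of 0, and the mitochondrial, sugar, nucleoside, organic ion and ABC sub-family D and F rows have medians to the left.

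The ATP-binding cassette family held 17 tested spots, of which 9 were higher on both arrays and 5 lower, with a median log2 ratio of 0.16, against 21 and 20 of 60 solute carriers with a median of 0.05. From array 1 alone these medians were 0.19 and -0.02, and from array 2 alone 0.28 and 0.07. After median centring the medians were 0.05 and 0.14, and after normexp and loess 0.15 and 0.02. Sub-family C, the multidrug resistance group, had 3 of 3 spots higher on both arrays, with a median log2 ratio of 0.78 that became 0.24 after normexp and loess, and sub-family G had 2 of 2. In sub-family B, Abcb4 and Abcb1 were higher on both, and Abcb2 (Tap1), the peptide transporter of antigen presentation, had log2 ratios of -0.88 and 0.55.

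The members of sub-families D and F were lower on both arrays in 4 of 4 spots. Abcd3, a carrier of the peroxisome, gave 6753 in Cy3 and 6026 in Cy5 on array 1, and 7181 and 6213 on array 2, a mean log2 ratio of -0.19 ± 0.03 (SD, n = 2). Abcf2 and Abcf3, which have no membrane domain, had mean log2 ratios of -0.62 ± 0.40 and -0.51 ± 0.36 (SD, n = 2). Abce1, which recycles ribosomes and also has no membrane domain, gave 9665 and 11111 on array 1, and 9783 and 10634 on array 2, a mean of 0.16 ± 0.06 (SD, n = 2), and under median centring its sign differed between the arrays.

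In sub-family A, Abca7 was low, whereas Abca1, the cholesterol exporter that loads apolipoprotein A-I, gave 106 in Cy3 and 138 in Cy5 on array 1, and 105 and 127 on array 2, a mean log2 ratio of 0.33 ± 0.07 (SD, n = 2). Its adjusted p was 0.34 in limma, and its mean log2 ratio was 0.15 after normexp and loess and 0.52 after median centring. Of the 4 spots of this sub-family 1 was higher and 1 lower on both arrays, and 2 were higher under median centring.

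Slc35a2, the carrier of UDP-galactose into the Golgi, was the only transporter with 2 spots of the same name. The bright spot gave 5929 in Cy3 and 4474 in Cy5 on array 1, and 5799 and 3980 on array 2, for log2 ratios of -0.41 and -0.54. The dim spot, from another clone, gave 117 and 137 on array 1 and 170 and 128 on array 2, for 0.23 and -0.41. Its mean of -0.09 ± 0.45 (SD, n = 2) turned to 0.06 under median centring, so the direction of the gene rests on the bright spot, at a mean of -0.47 ± 0.10 (SD, n = 2). With Slc35a1, the CMP-sialic acid carrier, at 0.46 ± 0.05 (SD, n = 2), the median of the nucleotide sugar class was -0.09, and 0.06 under median centring. It was 0.23 on array 1 and -0.41 on array 2.

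Other transport genes of the array do not carry the family names. Of 16 tested spots named as a transporter, exchanger or uncoupling protein, with the cystic fibrosis transmembrane conductance regulator counted among them, 3 were higher on both arrays and 8 lower (18.75% and 50%, against 36.7% and 36.8% of all probes). None of the 19 such spots was called by the rule above, which called 2.16% of all gene spots upward and 2.19% downward. Their median log2 ratio was -0.03, with -0.17 from array 1 and -0.05 from array 2. Monocarboxylate transporter 4 was the lowest, with a mean log2 ratio of -0.58 ± 0.33 (SD, n = 2). The highest was the potassium-dependent sodium and calcium exchanger annotated as Slc24A3, at 1.28 ± 0.96 (SD, n = 2), followed by neutral amino acid transporter at 1.01 ± 0.35 (SD, n = 2). The Cy3 signal of this exchanger was well above background on 1 array only, so its ratio is uncertain, and it is among the 3 counted as higher. With normexp and loess the counts were 4 higher and 6 lower, and with median centring 5 and 6.

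Genes that work beside transporters numbered 26 tested spots, with 5 higher on both arrays, 13 lower (19.2% and 50%, against 36.7% and 36.8% of all probes) and a median log2 ratio of -0.20, which was -0.35 from array 1 alone and -0.18 from array 2 alone. By the rule above, none of the 28 spots was called upward, beside 2.16% of all gene spots, and 4 were called downward, beside 2.19%. Metallothionein 1 and metallothionein 2, which bind zinc and copper, gave mean log2 ratios of -1.59 ± 0.13 and -1.06 ± 0.22 (SD, n = 2). Transferrin receptor, which brings in iron, gave 3884 in Cy3 and 810 in Cy5 on array 1, and 1498 and 928 on array 2, a mean of -1.48 ± 1.11 (SD, n = 2). Apolipoprotein A-I, the acceptor of lipid from Abca1, stood at -1.32 ± 0.29 (SD, n = 2).

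Upward among these genes were fatty acid binding protein 2, at 2.07 ± 0.51 (SD, n = 2), which the study had selected from these arrays and whose signals are below 1000, and hephaestin, a copper-dependent iron oxidase, at 1.86 ± 1.07 (SD, n = 2). Both were dim in Cy3, at 29.5 to 49.1, though well above background on both arrays. Basigin, the chaperone of monocarboxylate transporters, had log2 ratios of -0.44 and -1.37. Adjusted p values in limma were 0.058 at the lowest for the 26 spots. Under normexp with loess 7 were higher on both arrays and 14 lower, with a median of -0.10, and under median centring 5 and 11, with a median of -0.09.

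**Figure D5:**
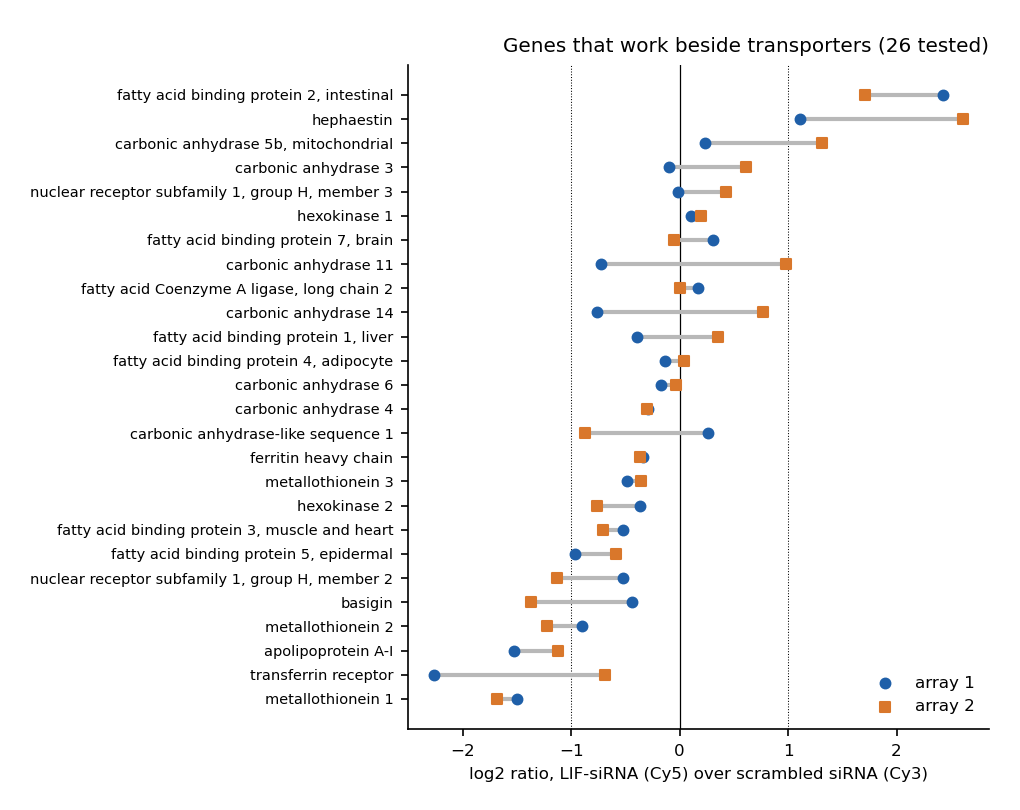
Log2 ratio of LIF-siRNA (Cy5) over scrambled siRNA (Cy3) on array 1 (circles) and array 2 (squares) for 26 tested spots of genes that work beside transporters, sorted by their mean, with dotted lines at a ratio of 2 and 0.5. Fatty acid binding protein 2 and hephaestin stand alone beyond the upper line on both arrays, and metallothionein 1 and apolipoprotein A-I lie below the lower line on both.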

How the data were processed

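Transcripts of morulae given LIF-siRNA or scrambled siRNA were measured on 2 two-color cDNA arrays. Scanner files of Agilent Feature Extraction were deposited, whose headers name another version of the software than the study's methods. The deposited intensity columns hold the brightness of each spot, its local background, the background-subtracted signal and the processed signal, which had been dye-normalized too and in which surrogates stand for low values. The deposited log10 ratio is Cy5 over Cy3 after the software's dye normalization. The deposited p-value of each spot comes from the software's error model and is not printed here. The deposited log2 values in the table for the whole series are average brightness (r of 0.998 with it on both arrays, with medians of 8.83 and 8.93), not a ratio, and was not used.

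Log ratios were converted to log2, and 23 gene spots with outlier marks, none of them a transporter, were dropped. The ratio of 8079 probes, each with a signal well above background in either channel of each array, was compared with 0 by limma 3.58.1 (R 4.3.3; a model with an intercept alone, two-sided), with Benjamini-Hochberg adjustment over all of them and a threshold of 0.05. The test was checked on simulated data. Tables and figures were made in Python 3.11.15 with matplotlib 3.10.9, pandas 2.3.3, scipy 1.17.1 and numpy 2.4.6. The arrays are labeled as biological replicates, but nothing states that they held separate pools, so the SD measures the spread between these arrays. The limma p is moderated, which means that the variance of each spot is drawn toward that of all probes tested. That p therefore does not follow the SD of a single spot, and it too rests on these arrays. With 2 arrays the precision of every ratio is limited.

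Symbols were read from family and member numbers and looked up in RefSeq (GRCm38.p6): 77 of 85 spots had a current symbol, 2 a current symbol that is also an older symbol of another gene, 4 an older symbol (Abcb1, Abca8, Abcb2 and Slc22a1l), and 2 had none. Named are the transporters past the study's thresholds on the mean of both arrays, the 10 highest and the 10 lowest mean log2 ratios with 1 sign on both arrays, those of a list of 62 embryo transporters that were on the array (30), and any gene with 2 spots, 42 in all, of which 1 is not reported here. Members and lists were chosen with earlier results of these data known. Alternatives were normexp (offset 50) with loess, median centring, each array left out, outliers kept, other signal rules and filters, an intensity trend and the methods' t-test.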

Additional observations from a re-analysis of the deposited data

How the results depend on the processing

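Each array's log ratio is the difference between the groups on that array, so the test against 0 is already a paired analysis. Of 41 named and tested transporters, 8 had opposite signs on the arrays and so depend on which array is used. The mean of all 41 kept its sign with normexp and loess and with outliers kept. Median centring reversed Slc6a6 (0.21) and the dim spot of Slc35a2 (0.062). It also moved by over 1.5 times the means of Slc16a7 (0.40), Slc16a1 (-0.36), Slc31a1 (-0.32), Slc11a2 (-0.24), Abcd3 (-0.28), Slc3a1 (-0.44), Slc19a1 (-0.13) and Abce1 (0.05). Normexp with loess did so for Slc16a7 (0.07), Slc19a1 (-0.17), Slc6a6 (-0.06) and the dim spot of Slc35a2 (-0.05). These are beside the spots given with their values above.

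The up-expression count of 4 became 8 without an intensity threshold and with well above background in its place, where Slc6a4, Abcc8, Slc7a9 and Slc34a1 were added (6.55% and 6.45% of all gene spots were called), and 2 (Abcb4 and Abcg2) when both arrays had to pass separately (0.941%). Of those added, Slc7a9 had a Cy3 signal not well above background on either array. The count lay between 3 and 5 with an array left out. The down-expression count of 2 became 4 without the intensity threshold and with well above background in its place, adding Slc25a10 and Slc2a5 (5.13% and 4.89%). It was 3 with median centring, which added Slc25a4, and the share of all gene spots called under that setting was not counted. It lay between 2 and 5 with an array left out, and it was 5 without replicate 1, which added Slc29a1, Slc25a10 and Slc25a4.

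The limma count of 0 (24 at an unadjusted p under 0.05, and 0 by the methods' t-test after adjustment, with 8 before it, 10.4% against 10.7% of all probes) became 5 with normexp and loess (1.96% of all probes were called), 15 with median centring (16.4%), 11 of 31 when only spots past the signal threshold were tested (18.7%), 6 of 73 with both channels well above background (3.09%) and 16 with an intensity trend (14%). It stayed at 0 with outliers kept and with no filter on dim probes. The cause of these changes was not tested. Slc7a9, tested only through its Cy5 signal, was among the 15 with median centring and the 16 with an intensity trend. Abcb4, Slc20a1 and Abca7 were called under each of the 5 settings that made calls. Slc25a10 and Slc6a4 were called under all of these but the signal threshold filter, where they were too dim to be tested. The median log2 ratio of 0.06 became 0.12 with median centring and 0.017 with normexp and loess, and it lay between 0.02 and 0.09 with an array left out. Signal over background limits the dim spots, such as those of Abcc8 and Slc7a9.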
